A study of Mus musculus with 12 samples.

Results

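Matricellular and scar genes were followed in mouse retina after laser injury: Sparc, Tgfbi, Fn1, Tnc, Thbs1, Thbs2, Postn and Lox, chosen by name and found as 1 row each among the 54367 genes of either deposited table. The mice were wild-type C57BL/6 animals aged 8 to 12 weeks. A 532 nm laser (75 µm spots, 0.1 s) burned the retina of the right eye, and the unlasered left eye of the lasered animals served as control, so no retina of an uninjured animal was in the comparison. All animals had been anaesthetised with hydrated chloral and had their pupils dilated. Poly(A) RNA of retinas taken on day 3 or day 7 gave 12 libraries, 3 in each of the 4 groups. Nothing states that the 3 come from separate animals, so the spread behind the p-values may be technical. By its title the study concerned vessel growth in the inflamed retina.

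Matricellular proteins are secreted into the extracellular matrix, where they alter how cells attach, move and receive growth factors more than they bear load. In many tissues they are scarce at rest and abundant at sites of wounding, and in the retina glia, vessels, pigment epithelium and incoming myeloid cells are known sources. Sparc encodes a collagen-binding counter-adhesive glycoprotein, Tgfbi a TGF-beta-induced adapter between matrix and integrins, Fn1 fibronectin, the scaffold of the provisional wound matrix, and Tnc the anti-adhesive tenascin C. Thbs1 and Thbs2 encode thrombospondins, which restrain angiogenesis, and thrombospondin 1 also activates latent TGF-beta. Postn encodes periostin, a relative of Tgfbi made by fibroblasts, and Lox the lysyl oxidase that crosslinks collagen and elastin.

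The deposited values are a length-scaled signal per gene. Recovered reads numbered 8738241 to 11879998 in the day 3 libraries, whereas day 7 had 22683098 to 29487383. Rod genes led the marker lists in every library (summed values of 7965.55 to 48962.3), and pigment epithelium genes were present as well (summed values of 49.5 to 755.8). Of the day 3 libraries, lasered replicate 1 stood apart. Its summed rod markers were 7965.55, against 17785.1 to 22593.1 in controls, and its summed cone markers 281.95 against 2371.27 to 2472.28. Its summed monocyte and macrophage markers were 765.8 against 9.88 to 12.5, and its platelet markers 421.5 against 1.52 to 2.09. Day 3 log2 differences of the members and of the other named genes of matrix remodelling, and the medians of their lists, are therefore given with and without it. In bulk tissue, fewer cells of a type and less RNA per cell cannot be told apart.

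The promoters of Sparc and Tgfbi are shown because these were the members whose 3 lasered libraries lay above all 3 controls on both days. RefSeq (GRCm38.p6) start sites were at hand for 5 of the 8 members, in 7 windows. The 250 bases before the start are given 5′ to 3′, with matches to any of 6 motifs, searched on both strands, in capitals.
Sparc, chr11:55420081-55420330, minus strand: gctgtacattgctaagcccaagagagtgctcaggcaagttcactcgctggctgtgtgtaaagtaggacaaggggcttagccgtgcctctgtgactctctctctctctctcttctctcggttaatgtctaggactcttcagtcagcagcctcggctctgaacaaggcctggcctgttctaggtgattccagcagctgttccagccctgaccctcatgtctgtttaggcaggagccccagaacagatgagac
Tgfbi, chr13:56609336-56609585, plus strand: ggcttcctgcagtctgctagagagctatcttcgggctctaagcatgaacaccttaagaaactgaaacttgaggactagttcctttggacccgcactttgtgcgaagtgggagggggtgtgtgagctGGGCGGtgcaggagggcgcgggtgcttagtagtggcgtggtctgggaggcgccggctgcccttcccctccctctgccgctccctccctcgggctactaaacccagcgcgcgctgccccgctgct
The Sparc window held none of the 6 motifs, and the Tgfbi window held 1, a GC box that began 124 bases before the start. The letters searched for the GC box were GGGCGG, which 32.7% of the 32817 promoter windows of the same length held. The TATA box was searched as TATAAA (12.4% of windows) and the CCAAT box by the letters of its name (33.8%). The AP-1 motif was TGANTCA (6.75%), the TEAD motif GGAATG (12.6%) and the STAT motif TTCNNNGAA (7.01%). A TATA match was present in both Tnc windows, the Thbs2 window and 1 of the 2 Postn windows, a GC box in both Tnc windows, and a CCAAT box in the Thbs2 window. No AP-1, TEAD or STAT match was present in the 7 windows, and no 2 matches overlapped. The 2 Tnc windows overlap.

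The first comparison set lasered against control retinas on day 3. Sparc was 1.77-fold to 2.33-fold above the mean control in every lasered retina, and Tgfbi was higher in every lasered retina, by 4.29-fold to 169-fold. Fn1, Tnc, Thbs1 and Lox were highest in lasered replicate 1. In lasered replicates 2 and 3, Fn1 lay within the range of the controls, Thbs1 lay below all controls, Tnc lay within their range or just below it, and Lox had 0 reads. By limma, with Benjamini-Hochberg adjustment over all 16786 genes tested, 0 of the 5 members that had a mean of at least 1 passed the threshold of 0.05. Over all genes 0.149% passed. At an unadjusted p under 0.05 there was 1 member, Sparc, where all genes gave 23%, and a second fit of the recovered reads with voom called 0. The members' median log2 difference was 0.97, which is the Thbs1 value, beside 0.16 for all genes tested. Tgfbi, which was in the test only through lasered replicate 1, is among the 5, so nothing is read from the members' median. Without lasered replicate 1, the 4 members still tested, Tgfbi not among them, had a median of 0.03, beside 0.13 for all genes. With lasered replicate 1 included, median-of-ratios rescaling moved the median of all genes from 0.16 to -0.03 and quantile normalization to -0.07. Neither turned the direction of a member.

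Sparc (ENSMUSG00000018593, chromosome 11 from 55394500 to 55423183, mm10) read 292.1, 343.8 and 385.5 in lasered replicates 1, 2 and 3 and 127.3, 193.4 and 174.8 in controls 1, 2 and 3. The groups did not overlap, and the library that stood apart elsewhere had the lowest of the lasered values. The means were 340.5 ± 46.8 and 165.2 ± 34.1 (SD, n = 3 each), a ratio of 2.06 that rests on 5272 to 8744 reads per lasered library. The log2 difference was 1.05 (SE 0.19, 95% interval 0.60 to 1.51; limma adjusted p = 0.0883, higher in 3 of 3 lasered libraries). Without lasered replicate 1 it was 1.16 and passed (limma adjusted p = 0.0423). The call was also made with library weights (adjusted p = 0.0371) and in a joint limma fit of 12 libraries (adjusted p = 0.0103). These settings called 369 and 1139 of all genes, where the first fit called 25. No other alternative made the call. The difference was 0.83 with median-of-ratios rescaling and with quantile normalization (limma adjusted p = 0.174 and 0.183). By voom it was 0.79 (adjusted p = 0.131), and without control replicate 1 it was 0.88 (limma adjusted p = 0.301).

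Tgfbi (ENSMUSG00000035493, chromosome 13 from 56609523 to 56639562) read 46.0, 1.17 and 2.15 in the lasered libraries, from 864, 31 and 44 reads. Its controls read 0.245, 0.412 and 0.158, from 6, 10 and 3 reads. The groups did not overlap, and replicate 1 was far above the other lasered libraries. Relative to the mean control the 3 lasered libraries were 169-fold, 4.29-fold and 7.90-fold higher. The log2 difference was 2.43 (SE 1.06, 95% interval -0.05 to 4.91; limma adjusted p = 0.223). Tgfbi entered the test through replicate 1 alone: without it, the mean over the libraries was under 1 and no test was made. Voom, which sees the same reads without the added 1, gave 3.86 (SE 2.02, adjusted p = 0.283).

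**Figure D1:**
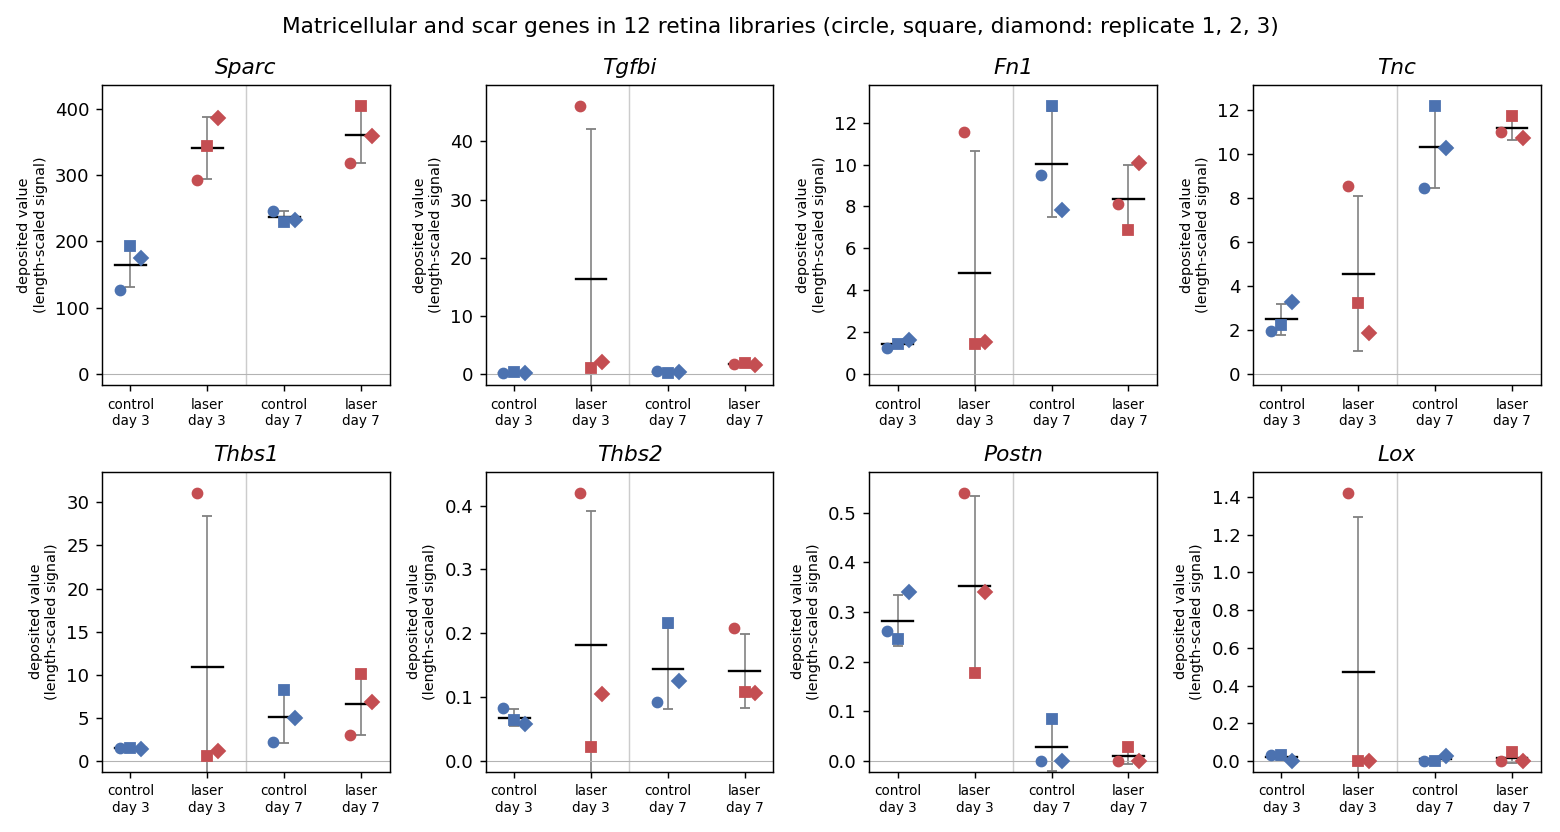
Deposited values (length-scaled signal, linear axes that differ between panels) of the 8 genes in 12 libraries, with group means (black bars) and SD (grey, n = 3, cut off at the lower edge of the axis where they pass below it). Sparc is higher in all lasered retinas on both days; on day 3 the other 7 genes are highest in lasered replicate 1 (red circle).

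Sparc and Tgfbi were the members with all 3 lasered libraries above all 3 controls, as were 27.7% of all genes tested. Tgfbi was among the tested genes only through a lasered library, so nothing is read from the count of members.

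Thbs1 (ENSMUSG00000040152, chromosome 2 from 118111876 to 118127133) read 31.1, 0.589 and 1.21 in lasered replicates 1, 2 and 3. In controls it read 1.46, 1.52 and 1.42. Replicate 1 was 21.2-fold above the mean control, while replicates 2 and 3 both lay below all controls, at 0.401 and 0.826 of their mean. The log2 difference of 0.97 (SE 1.03; limma adjusted p = 0.611) turned to -0.40 (SE 0.22; adjusted p = 0.411) without replicate 1. Its direction therefore rested on 1 library.

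Fn1 (ENSMUSG00000026193, chromosome 1 from 71585520 to 71653200) read 11.5, 1.44 and 1.56 in lasered retinas and 1.25, 1.44 and 1.62 in controls. Outside replicate 1 the groups overlapped: the mean of lasered replicates 2 and 3 was 1.05 times that of controls. The log2 difference was 0.82 (SE 0.60; limma adjusted p = 0.446), and 0.04 without replicate 1.

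Tnc (ENSMUSG00000028364, chromosome 4 from 63959785 to 64047015) read 8.53, 3.24 and 1.89 in lasered retinas and 1.95, 2.26 and 3.28 in controls. Only replicate 1 lay outside the range of the controls on the high side, and replicate 3 lay below them. The log2 difference was 0.50 (SE 0.42; limma adjusted p = 0.507), and 0.02 without replicate 1.

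Lox, Thbs2 and Postn did not reach a mean of 1 and were not tested. Lox (chromosome 18 from 52516069 to 52529867) had about 34 reads in lasered replicate 1 (33.8 before rounding), 0 in replicates 2 and 3, and 1, 1 and 0 in controls. Its span differs in the annotation used, so its reads are less exact than those of the other members. Nearly all of its signal on day 3 thus came from 1 retina, where it read 1.42. Thbs2 (chromosome 17 from 14665500 to 14694235) had 14, 1 and 4 reads in lasered retinas and 4, 3 and 2 in controls. Postn (chromosome 3 from 54361109 to 54391037) had 23, 10 and 16 reads against 15, 15 and 15, and its groups overlapped.

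Exons of Fn1, Lox, Thbs1 and Tnc share 30 to 292 bases with a gene of the opposite strand (Apol7d, AC161119.1, Gm29233 and 8030451A03Rik). The library kit keeps strand, but the sources used here do not say whether the counting used it.

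Over the 8 genes, 7 had their highest value in lasered replicate 1, and Sparc was the exception, highest in lasered replicate 3. Of all genes tested, 39.8% had their highest value in that library. Tgfbi was tested because of that library, so no count over the tested members is set against this share. The members took 0.0926%, 0.0766% and 0.0860% of the reads in lasered replicates 1, 2 and 3 and 0.0310% to 0.0443% in controls. Sparc alone made up 96.1% and 96.6% of the member reads in lasered replicates 2 and 3, but 65.1% in replicate 1. In that retina the other 7 genes supplied the rest, mainly Thbs1, Tgfbi and Fn1 with 899, 864 and 672 reads.

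**Figure D2:**
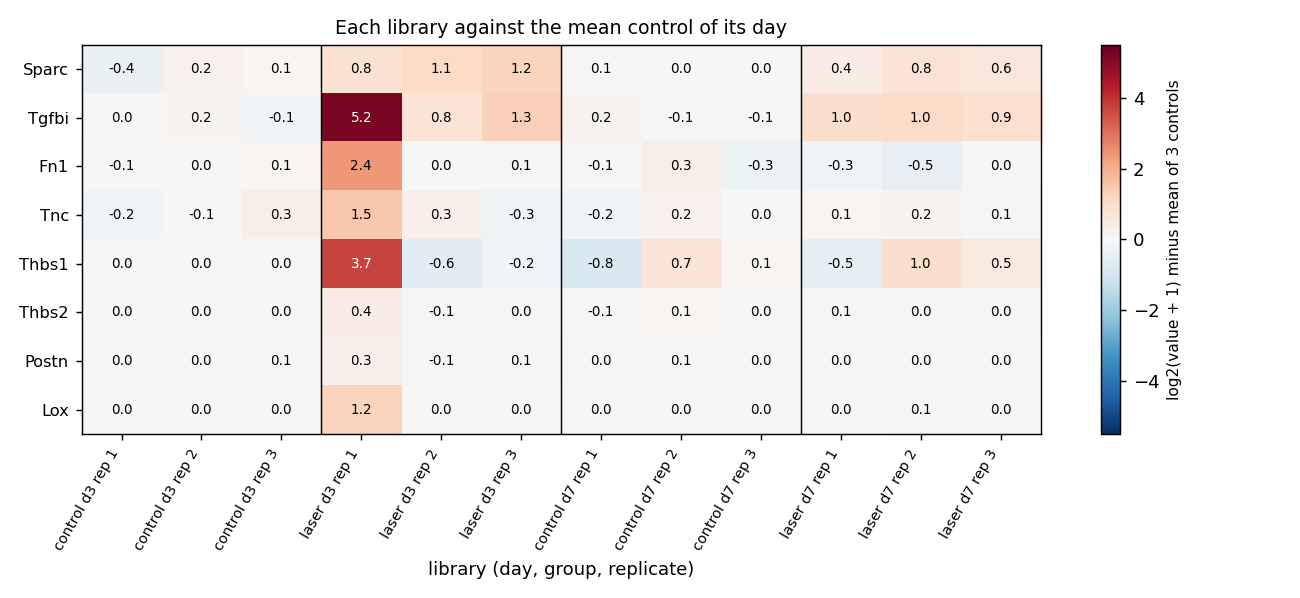
Difference of each library from the mean of the 3 controls of its day, on the log2(value + 1) scale, for 8 genes (rows) and 12 libraries (columns). Lasered replicate 1 of day 3 reaches 5.2 for Tgfbi and 3.7 for Thbs1, whereas Sparc lies between 0.8 and 1.2 in all lasered retinas of that day.

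Markers of several cell types also differed between libraries of day 3, not all in the same order. In lasered replicates 1, 2 and 3 of day 3 the summed monocyte and macrophage markers were 765.8, 59.7 and 105.0, and all 6 markers were above all controls. Tgfbi, Fn1, Thbs1, Thbs2 and Postn had the same order in these libraries, as did the sums of platelet and of fibroblast markers. Sparc had its lowest lasered value in replicate 1. Platelet markers summed to 421.5, 3.72 and 5.75. Pf4, a platelet chemokine, read 376 in replicate 1 and 0.445 on average in controls, and Ppbp, another platelet chemokine, 43.8 against 0.321. Gp9, which encodes a platelet membrane receptor subunit, was at 0 in that library, and Itga2b, the platelet integrin that binds fibrinogen, read 1.91 against 0.728. Fibroblast and myofibroblast markers summed to 39.1, 4.37 and 6.67, beside 4.12 to 7.10 in controls, with Acta2, the smooth muscle actin, at 30.2 in replicate 1. That list shares 4 of its 6 genes with the matrix lists used here (Col1a1, Col1a2, Dcn and Lum). Pigment epithelium markers summed to 49.5, 215.6 and 700.9 against 351.0 to 526.7, below all controls in replicates 1 and 2 and above all of them in replicate 3. Lens markers summed to 197.6 in replicate 2, 5.44 in replicate 1 and 0.0778 to 1.88 in controls. Microglia markers summed to 32.0, 22.5 and 24.1 against 11.2 to 15.2, endothelial markers to 27.6, 17.1 and 12.2 against 7.87 to 9.60, and pericyte markers to 16.6, 8.65 and 8.38 against 4.87 to 7.73. Above all controls in every lasered retina were 4 of 5 microglia, 2 of 5 endothelial and 1 of 4 pericyte markers. P2ry12 of microglia read 2.54 in replicate 1 against a control mean of 8.02. Endothelial Pecam1 read 1.62 and 1.33 in replicates 2 and 3 against 1.79. Markers of Mueller glia and astrocytes summed to 888.3 to 1037.6 against 927.1 to 1057.0, but single markers moved in opposite directions. Gfap, the filament protein of reactive glia, read 411.6, 93.8 and 103.8 against a control mean of 6.48, and Glul, glutamine synthetase, 67.2, 284.9 and 237.5 against 315.1. Markers of melanocytes summed to 10.1 to 32.9 against 17.3 to 56.5, and of cornea to 0.108 to 2.97 against 0.0832 to 0.710, with Kera at 0 in all 6 libraries. The part of these cell types in the results was not tested.

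**Figure D3:**
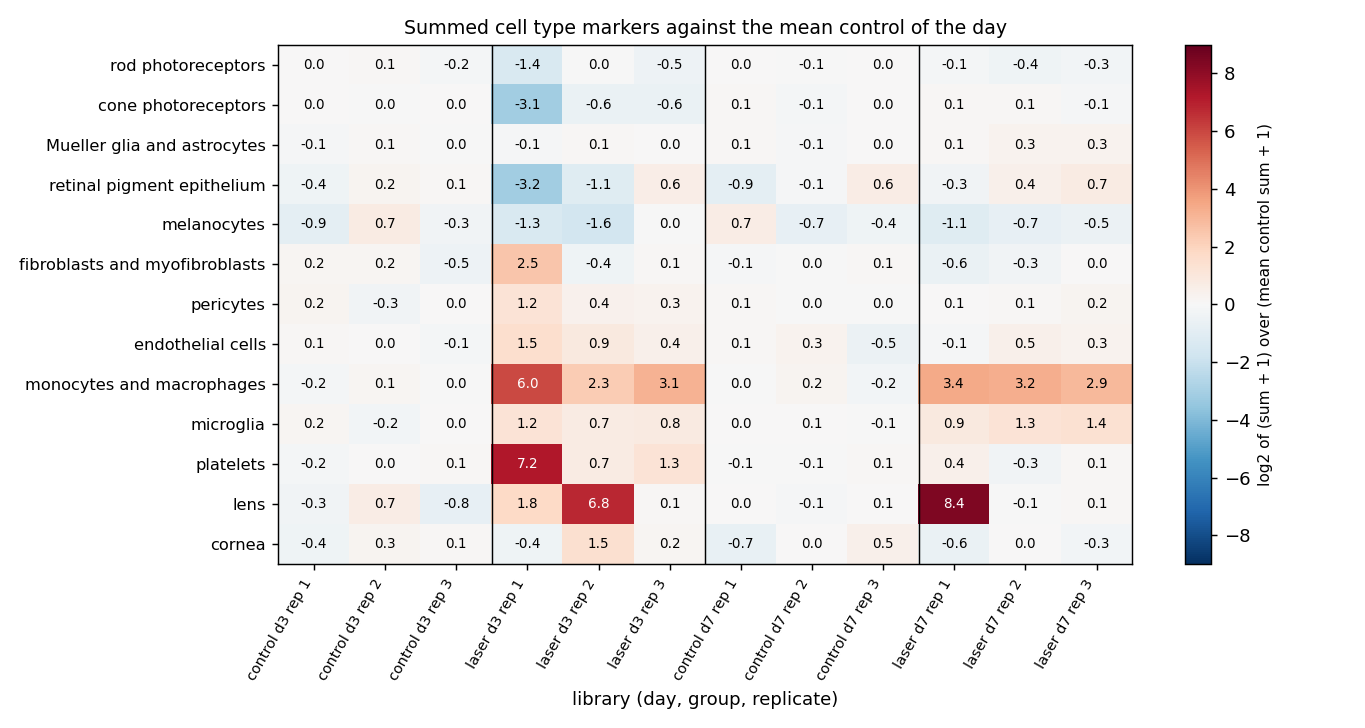
Summed marker values of 13 cell types (rows) in each library (columns) as log2 of the ratio to the mean control of the day, with 1 added to both sums. On day 3, lasered replicate 1 reaches 6.0 for monocytes and macrophages and 7.2 for platelets; on day 7, the 3 lasered retinas lie between 2.9 and 3.4 for monocytes and macrophages.

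On day 7 the picture was simpler. Sparc remained higher in all lasered retinas, by 1.53-fold in the means, and Tgfbi by 4.23-fold at a low level. Fn1, Tnc, Thbs1 and Thbs2 overlapped between groups, and Postn and Lox were close to 0. By limma 0 of 5 tested members passed, where 0.244% of 15592 genes did, and voom called 0. At an unadjusted p under 0.05 there were 2, Sparc and Tgfbi, where all genes gave 3.94%. Both had all lasered libraries above all controls, as did 6.78% of all genes. Tgfbi passed the filter only through its lasered libraries, so nothing is read from the count of members.

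Sparc read 318.0, 403.3 and 359.2 in lasered replicates 1, 2 and 3 and 246.5, 229.6 and 232.0 in controls. The groups did not overlap, and the controls lay close together. The means were 360.2 ± 42.6 and 236.0 ± 9.14 (SD, n = 3 each), a ratio of 1.53. The log2 difference was 0.60 (SE 0.13, 95% interval 0.29 to 0.91; limma adjusted p = 0.346, higher in 3 of 3 lasered libraries).

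Tgfbi read 1.77, 1.89 and 1.65 in lasered retinas, from 60, 62 and 65 reads, and 0.624, 0.294 and 0.339 in controls, from 22, 11 and 10 reads. The lasered values were as close to each other as the controls were, unlike day 3. The means were 1.77 ± 0.120 and 0.419 ± 0.179 (SD, n = 3 each), a ratio of 4.23. On the log2(value + 1) scale, which compresses low values, the difference was 0.97 (SE 0.23, 95% interval 0.42 to 1.52; limma adjusted p = 0.411), and by voom 2.03 (SE 0.41, adjusted p = 0.211). With a mean of 1.10 over the 6 libraries Tgfbi was just inside the filter.

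Thbs1 read 2.97, 10.1 and 6.80 in lasered retinas and 2.16, 8.21 and 5.01 in controls. Libraries of equal number ran together, each lasered value being 1.22 to 1.37 times the control of its number. The log2 difference was 0.32 (SE 0.50; limma adjusted p = 1.00, and 0.689 with the replicate number as a block, where the SE was 0.15). Fn1 read 8.12, 6.89 and 10.1 against 9.48, 12.8 and 7.85, a log2 difference of -0.23 (SE 0.24, 95% interval -0.80 to 0.35) that ran from -0.37 without control replicate 3 to -0.05 without control replicate 2. Tnc read 11.0, 11.7 and 10.7 against 8.47, 12.1 and 10.3, a log2 difference of 0.12 (SE 0.19, 95% interval -0.34 to 0.57). The groups overlapped for Thbs1, Fn1 and Tnc, and the intervals of Fn1 and Tnc hold no change as large as 2-fold on this scale.

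Thbs2 read 0.208, 0.108 and 0.107 in lasered retinas and 0.0929, 0.216 and 0.126 in controls, from 6 to 15 reads per library. Postn, the fibroblast gene, had 0, 2 and 0 reads against 0, 7 and 0. Lox had 0, 2 and 0 reads against 0, 0 and 1. No thrombospondin 2, periostin or lysyl oxidase signal set lasered retinas apart at this depth, where 3 reads correspond to values of up to 0.0541, 0.0420 and 0.0791. Summed monocyte and macrophage markers on day 7 were 128.6, 117.1 and 92.9 in lasered retinas and 9.66 to 13.6 in controls, and 5 of 6 markers were above all controls. Markers of Mueller glia and astrocytes summed to 4852.3 to 5635.7 against 4189.7 to 4692.9, with Gfap at 163.5, 119.7 and 135.7 against a control mean of 27.0. Microglia markers summed to 43.4 to 60.7 against 22.1 to 24.1, and rod markers to 35713.9 to 43312.2 against 45522.9 to 48962.3. None of these 4 sums overlapped between groups. Above all controls were 3 of the 5 glial and 3 of the 5 microglia markers. Of the 5 rod markers, 1 lay below all controls and 1 above. The part of these cell types in the Sparc and Tgfbi values was not tested. Platelet markers summed to 1.58 to 3.31 against 2.07 to 2.44, with Ppbp at 0 in all 6 libraries. Fibroblast markers summed to 6.93 to 11.2 against 10.4 to 12.1. Lens markers summed to 794.0 in lasered replicate 1 and to 1.25 to 1.64 in the other 5 libraries.

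**Figure D4:**
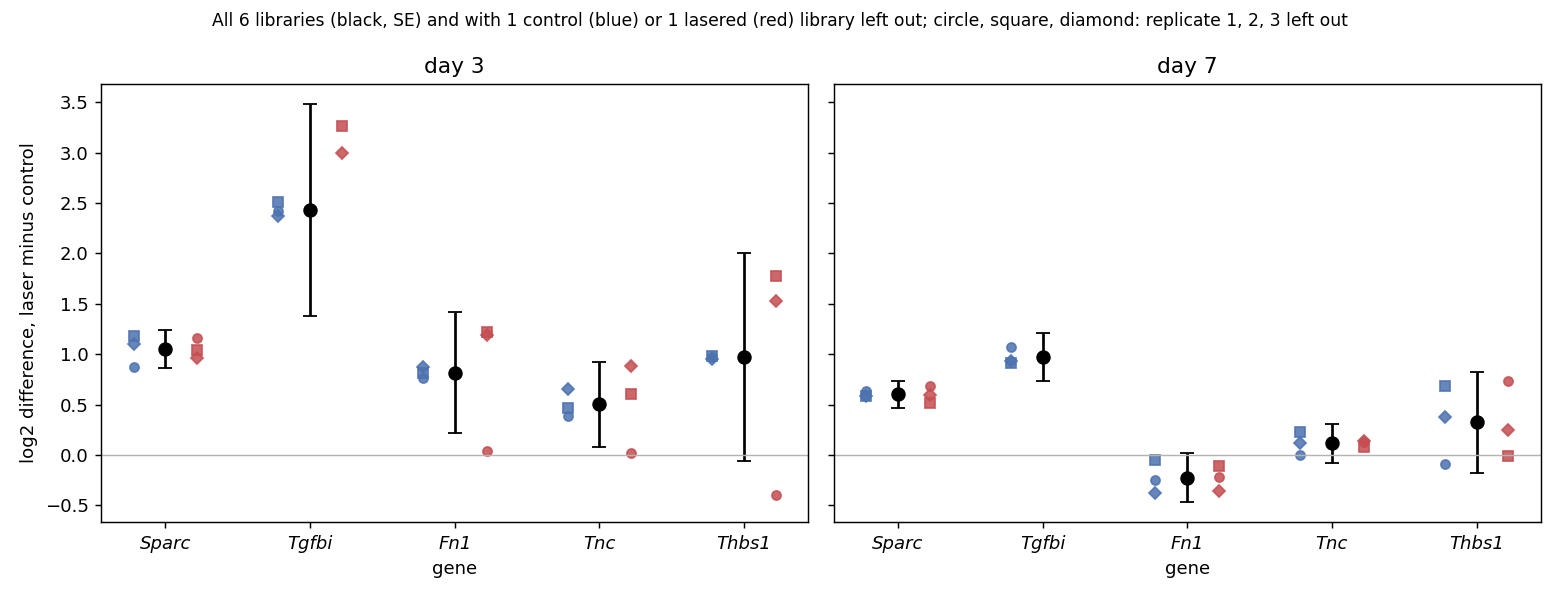
Log2 difference between lasered and control retinas (y axis) for the 5 tested genes, with all 6 libraries of the day (black, SE) and with 1 library left out (blue, a control; red, a lasered library; circle, square and diamond for replicates 1, 2 and 3). Without lasered replicate 1 on day 3, Fn1 and Tnc come to 0.04 and 0.02 and Thbs1 to -0.40, while Sparc is at 1.16; the missing points are fits in which the mean of Tgfbi was under 1.

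The difference between lasered and control retinas was then compared between the days with an interaction term in 1 fit to the 12 libraries, each difference being taken within its own table. None of the 5 tested members passed by limma (0 of 17611 genes, 0%, passed; 0 members and 9.39% of genes at an unadjusted p under 0.05; 0 members by voom). Tgfbi changed by -1.46 (SE 1.18; adjusted p = 0.777), by -0.42 with library weights and by -2.29 without lasered replicate 2 of day 3, and had no value without lasered replicate 1 of day 3. Sparc changed by -0.45 (SE 0.25, 95% interval -0.99 to 0.09; adjusted p = 0.627), by -0.27 without control replicate 1 of day 3, and Fn1 by -1.04 (SE 0.70; adjusted p = 0.704). Without lasered replicate 1 of day 3 the Fn1 value was -0.27. Tnc (-0.39, SE 0.49) and Thbs1 (-0.65, SE 1.26) became 0.09 and 0.72 without that library.

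Per unit of length, Sparc was the most abundant of the 8 genes in each of the 4 groups. Its rank by value among all genes ran from 301 to 804 over the 12 libraries. Among controls of day 3 it was followed by Tnc, then Thbs1 and Fn1, then Postn and Tgfbi, then Thbs2 and Lox. Thbs1 and Fn1 overlapped in range, as did Postn and Tgfbi, and the other neighbours did not. Among controls of day 7 the order was Sparc, Tnc, Fn1, Thbs1, Tgfbi, Thbs2, Postn and Lox, with overlapping ranges between Tnc and Fn1, Fn1 and Thbs1, and Postn and Lox. Lasered retinas of day 7 kept the order of the first 6. In lasered retinas of day 3 Tgfbi and Thbs1 followed Sparc by their means, with overlapping ranges from Tgfbi down to Tnc, since both means rest on replicate 1.

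The levels of the controls differed between the days. Fn1 averaged 1.44 ± 0.182 on day 3 and 10.03 ± 2.51 on day 7, Tnc 2.49 ± 0.696 and 10.3 ± 1.84, and Thbs1 1.47 ± 0.0492 and 5.13 ± 3.03 (SD, n = 3 each). Postn went the other way, from 0.283 to 0.0285. Sparc was at 165.2 and 236.0. Such gaps were not confined to the members. Spock2 averaged 4.37 in controls of day 3 and 359.3 in those of day 7, and Lrp1 1.04 and 53.3. In the other direction, the glial marker Aqp4 averaged 57.3 and 3.51 and the microglia marker P2ry12 8.02 and 0.248. Slc1a3 and Aif1 of the same marker lists were also lower on day 7. The other markers of these lists were higher on day 7: Glul (315.1 and 3466.4), Rlbp1 and Gfap of glia. Of microglia these were Csf1r (1.93 and 13.5), Tmem119 and Cx3cr1. The tables of the days were normalized separately and the libraries differed in depth, so these gaps were not tested. Their part in the comparison of laser differences between the days was not tested either.

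The genes whose pattern was most like that of a tested member were sought over 12 libraries by Pearson correlation of log2(value + 1) after subtracting the mean control of the day. Candidates were the named genes with a mean of at least 5 on both days. For Sparc these were F11r (r = 0.978), Cd83 (0.938) and Pon2 (0.937), and 25 of 5739 candidates exceeded 0.9. For Tgfbi they were Crispld2 (0.981), Dhrs1 (0.981) and Ifi35 (0.980), with 164 of 5740 over 0.9. For Fn1 they were Akap1 (0.954), Sdc4 (0.947), which encodes the fibronectin co-receptor syndecan 4, and Crip1 (0.945). Tnc was closest to Rcan3 (0.920), Med20 (0.917) and Mfsd1 (0.914). Thbs1 was closest to Sostdc1 (0.943), Inpp5b (0.937) and Akirin2 (0.924). All points share the 12 libraries, and lasered replicate 1 of day 3 is the farthest point for 4 of the 5 genes.

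Other genes of matrix remodelling were read from 6 fixed lists. On day 3, 0 of their 59 tested genes passed by limma over all genes, and 0 members of any list fell at an unadjusted p under 0.05. At that unadjusted level, where 20.7% of all genes were higher, 2 of 16 other matricellular genes, 4 of 11 receptors, 6 of 11 crosslinking and maturation enzymes, 3 of 9 TGF-beta genes, 0 of 2 collagens and 5 of 10 proteases and inhibitors were higher. Cyr61, Bmp1 and Timp1 were among the genes counted here that passed the filter only through lasered libraries. Cyr61 and Bmp1 averaged 0.581 and 0.551 in controls. Nothing is therefore read from these counts. Median log2 differences of these lists were 0.25, 0.58, 0.91, 0.37, 0.45 and 1.00, beside 0.16 for all genes. Without lasered replicate 1 they were 0.10, 0.26, 0.51, 0.27, 0.25 and 0.45, beside 0.13 for all genes. Genes that passed the filter only through lasered libraries are in these medians too, so nothing is read from the medians either. In that fit 5 of the 50 list genes tested passed: Cyr61, Spp1, Cd44, Timp1 and Tgm2, all higher. Over all genes 294 of 16396 passed there, 279 of them higher. Cyr61 and Timp1 again passed the filter only through lasered libraries, so nothing is read from the count of 5.

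Among ligands, Cyr61, an integrin-binding early response protein, read 9.45, 4.07 and 3.28 in lasered retinas and 0.153, 1.00 and 0.591 in controls on day 3. It thus lay above all controls in each retina, by 1.98 on the log2 scale (SE 0.37; limma adjusted p = 0.0883), and by 1.60 without lasered replicate 1 (adjusted p = 0.0441). Spp1, osteopontin, a cytokine-like matrix protein of macrophages and glia, read 1170, 137.9 and 163.3 against 28.8, 26.5 and 32.8 (log2 difference 3.30, SE 0.75; adjusted p = 0.0938), and differed by 2.32 without replicate 1 (SE 0.16; adjusted p = 0.00337). Spock2, a testican proteoglycan related to Sparc, differed by 0.36 (SE 0.19; adjusted p = 0.305), and by 0.18 without replicate 1. Sparcl1, the closest relative of Sparc and named after its values were seen, read 72.1, 137.0 and 152.2 against 142.4, 149.6 and 161.9, lower in mean by 0.40 on the log2 scale (SE 0.27; adjusted p = 0.418) with overlapping groups, and the difference was -0.06 without replicate 1.

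Among receptors, Cd44, the hyaluronan and osteopontin receptor, read 63.4, 8.42 and 12.0 against 3.24, 3.25 and 3.67 on day 3 (2.18, SE 0.65; limma adjusted p = 0.124), and differed by 1.34 without replicate 1 (SE 0.19; adjusted p = 0.0223). Itgb1, the integrin subunit shared by fibronectin receptors, differed by 0.87 (adjusted p = 0.188) and Lrp1, an endocytic receptor for thrombospondins, by 0.58 (adjusted p = 0.193). None of these 3 overlapped between groups, and without replicate 1 Itgb1 differed by 0.47 and Lrp1 by 0.39.

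Among enzymes of matrix maturation, Pcolce, which enhances procollagen processing, read 41.5, 16.1 and 26.3 against 3.72, 9.68 and 5.35 (1.99, SE 0.40; limma adjusted p = 0.0915). Serpinh1, the collagen chaperone, read 38.3, 12.8 and 16.6 against 7.14, 8.69 and 7.20 (1.29, SE 0.37; adjusted p = 0.115). Plod1, a collagen lysyl hydroxylase, differed by 0.48 (adjusted p = 0.138). These 3 lay above all controls in every lasered retina, and without replicate 1 they differed by 1.66, 0.85 and 0.44 (adjusted p = 0.0830, 0.0759 and 0.246).

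Of TGF-beta genes, Tgfb2, the main isoform of the eye, read 20.8, 12.4 and 16.4 against 7.81, 11.3 and 9.71 (0.71, SE 0.22; limma adjusted p = 0.128). Tgfbr1, its type I receptor, differed by 0.40 and Smad4, the shared signal transducer, by 0.37 (adjusted p = 0.188 and 0.216). Without replicate 1 these 3 differed by 0.54, 0.37 and 0.26. Of collagens, Col4a1, a basement membrane chain, differed by 0.73 (adjusted p = 0.267) and Col6a1, a chain of beaded filaments, by 0.17 (adjusted p = 0.580). Without replicate 1 Col6a1 differed by 0.25, and Col4a1 had a mean under 1 and was not tested. Of proteases and inhibitors, Timp1, a metalloprotease inhibitor, read 1075, 15.3 and 16.9 against 0.855, 1.19 and 0.232 (5.31, SE 1.50; adjusted p = 0.115), and differed by 3.32 without replicate 1 (SE 0.26; adjusted p = 0.00398). Adamts1, a matrix protease that binds Vegfa, differed by 1.60 (adjusted p = 0.137) and Timp2 by 0.76 (adjusted p = 0.137), and without replicate 1 by 0.94 and 0.50 (adjusted p = 0.0713 and 0.188).

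On day 7, 1 of 79 tested genes in the 6 lists passed, Timp1, which had a mean of at least 1 only through its lasered libraries. Timp1 read 8.89, 9.26 and 6.12 in lasered retinas and 0.636, 0.438 and 0 in controls, and rose by 2.75 on the log2 scale (SE 0.29; limma adjusted p = 0.0202). The call was lost in the joint fit (adjusted p = 1.00), with a pseudocount of 0.1 (0.127), without the filter (0.0867), by voom (0.0765) and without any 1 of the 6 libraries other than lasered replicate 2 (0.0800 to 0.139). At an unadjusted p under 0.05, where 3.14% of all genes were higher, the lists held 0 of 20 other matricellular genes, 2 of 13 receptors, 3 of 13 enzymes, 1 of 17 TGF-beta genes, 0 of 6 collagens and 4 of 10 proteases and inhibitors. Timp1 and Lrg1 (control mean 0.565) passed the filter only through lasered libraries, so nothing is read from these counts. The medians of the lists were 0.12, 0.29, 0.23, 0.25, 0.01 and 0.31, beside 0.055 for all genes. The members' median was 0.32, with Tgfbi in the test only through its lasered libraries. Nothing is read from these medians either, since genes such as Timp1, Lrg1 and Tgfbi are in them.

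Cd44 read 6.18, 13.3 and 7.38 in lasered retinas of day 7 and 2.18, 3.40 and 2.61 in controls (1.36, SE 0.31; limma adjusted p = 0.363), again without overlap. Bmp1, the procollagen C-proteinase, read 13.7, 14.7 and 14.4 against 7.40, 7.13 and 6.45 (0.94, SE 0.17; adjusted p = 0.183), and Pcolce, its enhancer, 24.9, 21.0 and 36.9 against 12.6, 15.8 and 10.9 (1.00, SE 0.25; adjusted p = 0.450). Both lay above all controls. Of other named genes, Itgb5 differed by 0.49, Stab1, a scavenger receptor for Sparc, by 0.47, Tgm2, a crosslinking transglutaminase, by 0.70, and Lrg1, a modulator of TGF-beta signalling in vessels, by 0.79 (adjusted p = 0.876, 1.00, 1.00 and 1.00). Timp2 differed by 0.47 and Adamts1 by 0.88 (adjusted p = 0.579 and 0.852). Spock2 differed by -0.24, Cyr61 by 0.37, Emilin1 by 0.39, Smad3 by 0.28, Ltbp1 by 0.39, Col4a1 by 0.12, Col18a1 by 0.09 and Col4a2 by -0.09 (each adjusted p = 1.00).

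**Figure D5:**
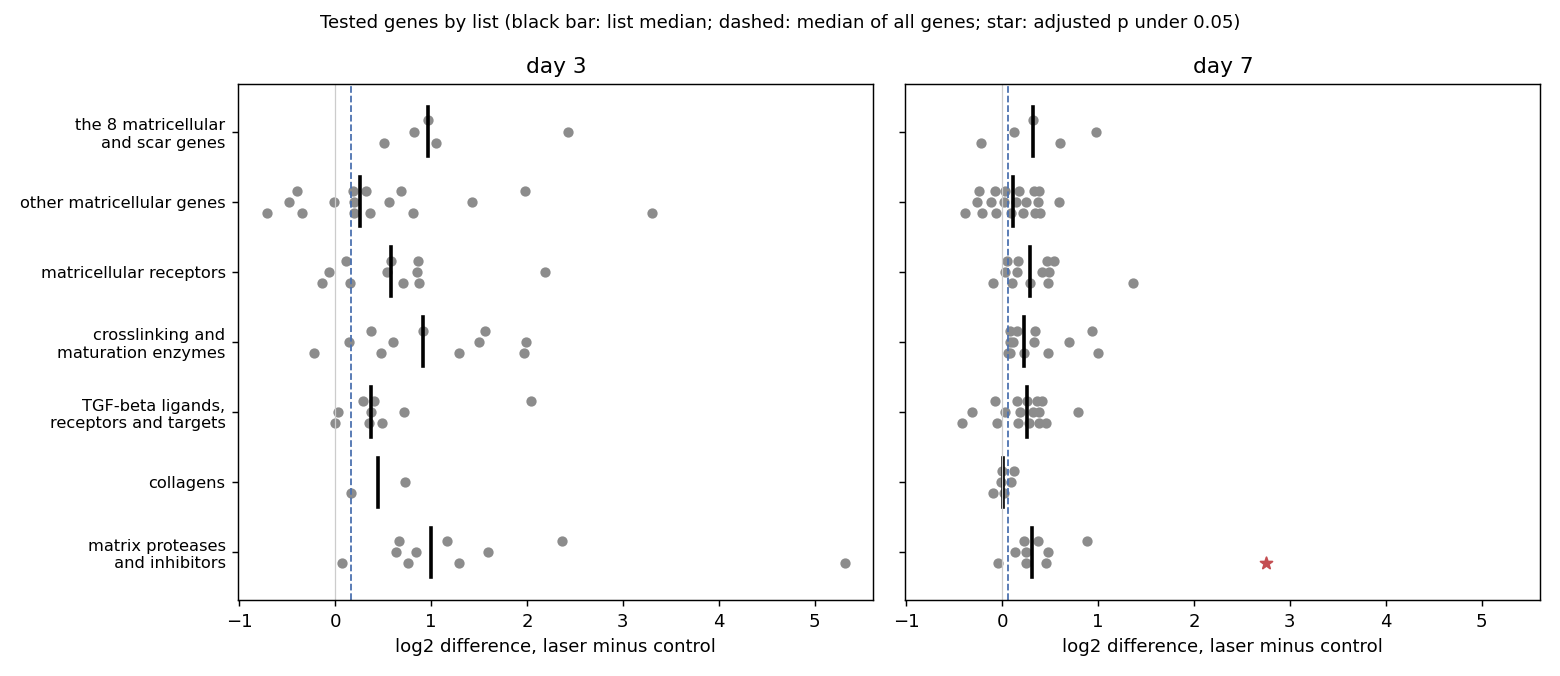
Log2 difference between lasered and control retinas (x axis) of every tested gene in 7 lists (rows) on day 3 and day 7, with list medians (black) and the median of all genes (dashed). The median of the 8 named genes, of which 5 were tested, is 0.97 on day 3 and 0.32 on day 7. Tgfbi is among the 5 only through its lasered libraries. Other lists hold such genes as well, so nothing is read from the medians. Without lasered replicate 1 the day 3 median is 0.03, with Tgfbi not tested. The star is Timp1.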

How the data were processed

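RNA of 12 mouse retina libraries was sequenced, and the authors deposited 1 table per day with a value for each of 54367 genes. The deposited values are called TPM in the tables' names, but their columns sum to 953049 to 1045986, so they were treated as a length-scaled signal. The submitters' processing notes name STAR 2.7.0, edgeR 3.28.0 and mm10, without saying which step each served. Reads were recovered from the signal, GENCODE M21 exon lengths and a factor of 6 values that cycles with row position. Of values under 20 reads, 99.75% to 99.84% came out whole within 0.05, where chance gives 10.0%. Read totals cover the 53681 genes with the same start and end in M21. A value of 3 reads is the floor, for counting error only.

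Groups came from the sample titles. Each day was tested in its own table with limma 3.58.1 (R 4.3.3) on log2(value + 1) with a mean-variance trend, on genes averaging 1 or more, with Benjamini-Hochberg adjustment and a threshold of 0.05. The interaction used 12 libraries. Alternatives were the pseudocount (0.1), the filter (none, or a mean of at least 5), rescaling, library weights, a joint fit, the replicate number as a block, each library left out, and, chosen after seeing the data, the cyclic factor undone and voom on recovered reads (at least 10 reads in 3 libraries). Summaries used pandas 2.3.3 and NumPy 2.4.6 under Python 3.11.15, and figures matplotlib 3.10.9.

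The members and lists were chosen with earlier results of these data known. Named are the 8 members, the called genes of each list or else the 3 with the smallest unadjusted p of each day, and the 3 most alike genes per tested member. The design makes the left eye the control of its own animal, but no label states that equal replicate numbers mark 1 animal. Deviations of libraries of equal number correlated at 0.485, 0.559 and 0.128 on day 7, which meets the bar set for pairs. Lasered replicate 3 of day 7 correlated better with control 1 (0.205) than with control 3. On day 3 libraries of equal number correlated at 0.0413, 0.0162 and 0.0766, which does not meet the bar. Printed values come from the fit without pairs on both days, and the block is an alternative. Columns that matched no sample numbered 0.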

Additional observations from a re-analysis of the deposited data

Results flagged for a closer look

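Spock2, a testican proteoglycan of the Sparc family, had laser differences of opposite sign on the days, neither of which passed. It was picked from the members and lists because its groups did not overlap on either day, in opposite directions. On day 3 the lasered retinas read 7.84, 4.92 and 5.19 and the controls 4.20, 4.69 and 4.21, so all lasered libraries lay above all controls. The same held for 27.7% of all genes tested on day 3. On day 7 the lasered retinas read 328.3, 257.3 and 332.6 and the controls 359.2, 373.2 and 345.4, so all lay below. Within the days the log2 difference was 0.36 on day 3 (limma unadjusted p = 0.102) and -0.24 on day 7 (limma unadjusted p = 0.137). Without lasered replicate 1 the day 3 difference was 0.18, beside a median of 0.13 for all genes. The mean control was 4.37 on day 3 and 359.3 on day 7. The log2 difference changed by -0.60 from day 3 to day 7 (SE 0.24; limma unadjusted p = 0.0303, adjusted p = 0.481), which did not pass the threshold over all genes. Spock2 was picked for this very opposition, so nothing is read from the unadjusted p.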

How the results depend on the processing

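Of 256 values of single members under an alternative, 242 kept their direction and their side of the threshold, 3 came to pass it and 11 changed sign. The 3 were Sparc on day 3: the count of members called was 1 in place of 0 with library weights (log2 difference 1.18, adjusted p = 0.0371), in the joint fit (1.05, adjusted p = 0.0103) and on omission of lasered replicate 1 (1.16, adjusted p = 0.0423), and leaving out each library in turn gave 0 to 1. Over its alternatives the adjusted p of Sparc on day 3 ran from 0.0103 to 0.301. With library weights Thbs1 turned to -0.0093 on day 3, -0.33 on day 7 and 0.45 in the interaction, and Fn1 to 0.0018 on day 7 and 0.016 in the interaction. Without lasered replicate 1 of day 3, Thbs1 turned to -0.40 on day 3 and 0.72 in the interaction, and Tnc to 0.095 in the interaction. On day 7, Tnc turned to -0.0045 and Thbs1 to -0.089 without control replicate 1, and Thbs1 to -0.0070 without lasered replicate 2. The cause was not tested. With 1 library left out in turn, Thbs1 ran from -0.40 to 1.77 on day 3, from -0.089 to 0.73 on day 7 and from -1.45 to 0.72 in the interaction, and Tnc from -0.0045 to 0.23 on day 7 and from -0.77 to 0.095 in the interaction. Fn1 ran from -0.37 to -0.05 on day 7 and from -1.45 to -0.27 in the interaction, Sparc from -0.57 to -0.27 in the interaction, and Tgfbi from -2.29 to -1.36 there. Tgfbi had a mean under 1, and so no value, without lasered replicate 1 of day 3 and without any 1 of the lasered libraries of day 7.

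With the replicate block 0 members were called on either day or in the interaction (Sparc adjusted p = 0.171 on day 3 and 0.226 on day 7, Tgfbi 0.290 on day 7). Calls over all genes went from 25 to 0 with the block on day 3 and from 38 to 53 on day 7. On day 3, at only 0.0162 to 0.0766 and so under the bar set for pairs, every lasered library correlated best with the control of its number. On day 7 this held for lasered replicates 1 and 2 but not for replicate 3. On day 3 all-gene calls were 369 with library weights, 1139 in the joint fit, 0 without a filter, 14 with median-of-ratios rescaling, 12 with quantile normalization, 14 by voom, and 0 to 294 with 1 library left out. On day 7 they were 114 with library weights, 25 in the joint fit, 13 without a filter, 24 with median-of-ratios rescaling, 15 by voom, and 0 to 41 with 1 library left out. In the interaction they were 0 at first, 1119 with library weights, 2 with a pseudocount of 0.1, 28 without a filter and 0 to 3 with 1 library left out. The library weights stopped short of their convergence tolerance in some fits. Depth limits Thbs2, Postn and Lox, which had 0 to 34 reads per library.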
